A study of Rattus norvegicus with 18 samples.

Results

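The SLC25 family comprises the carrier proteins that move nucleotides, phosphate, organic acids, amino acids, acylcarnitines, cofactors and metals, for the most part across the inner mitochondrial membrane. Its transcripts were followed in rat kidney after the left ureter had been tied off. Members were the genes of the deposited expression table whose symbol is Slc25a followed by a number. This gave 43 genes, each on 1 row of the table, out of 30957 genes, and 37 of the 43 had enough reads to be tested. The material was renal parenchyma of rats with unilateral ureteral obstruction, a surgical model in which urine cannot leave 1 kidney and the kidney dilates, loses tubule epithelium and scars. Libraries of poly(A)-selected RNA came from kidneys obstructed for 1 day (5 libraries), 3 days (5 libraries), 7 days (5 libraries) and, as labelled, 14 days (3 libraries). Every library in these groups thus comes from an operated animal under ketamine anaesthesia. The labels give no strain, sex or age, and 1 batch entry is shared by all 18 libraries. Sham-operated animals were not analysed here. All comparisons are thus of 1 duration of obstruction with another, never with an unobstructed kidney. The labels do not tie each library to its own animal, and the p-values therefore reflect how far libraries differ from each other, a spread that may be technical.

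SLC25 proteins are encoded in the nucleus and made in the cytosol, and most are inserted into the inner membrane by the TIM22 translocase. The carriers set which metabolites the matrix shares with the cytosol: ADP and ATP, phosphate, the intermediates of the malate-aspartate shuttle, citrate for lipid synthesis, and fatty acids in carnitine form. The proximal tubule, a mitochondria-rich epithelium of the renal cortex, depends on fatty acid oxidation and oxidative phosphorylation for solute reabsorption. In bulk tissue, fewer cells of a type and less RNA per cell cannot be told apart.

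Total counts ran between 5488540 and 12049915 per library. The 3 libraries labelled 14 days stood apart from the other 15. The summed level of 6 markers of injured tubule was between 64.2 and 302.6 FPKM in them (fragments per kilobase of transcript, scaled to the mapped fragments of the library), against 6491 to 17690 FPKM in the libraries of 1, 3 and 7 days. Spp1 made up most of this sum, and Havcr1 and Lcn2 were also below all 15 other libraries, whereas Sox9 (31.9 FPKM in replicate 2), Vcam1 (9.54 and 10.9 FPKM in replicates 1 and 3) and the barely detected Krt20 were not. The 13 protein-coding genes of the mitochondrial genome took 14.2% to 27.1% of their counts, against 7.05% to 13.4% elsewhere. Replicate 2 of the 3 had a proximal tubule marker sum of 4429 FPKM, whereas replicates 1 and 3 had 303.2 and 204.4 FPKM with collecting duct sums of 1320 and 1247 FPKM. Kap alone gave 2214 FPKM of the sum in replicate 2. There Kap, Lrp2, Miox and Aqp1 lay above all 15 other libraries, but Slc5a2 (6.3 FPKM) and Slc13a3 (52.9 FPKM) lay below them. In replicate 3, Aqp2 (776.9 FPKM) and Aqp3 (466 FPKM) made up nearly all of the collecting duct sum. Its Scnn1g (0.305 FPKM), Atp6v1b1 (1.32 FPKM) and Slc4a1 (2.445 FPKM) were the lowest of all libraries. These 3 libraries enter the estimate of the spread in a joint fit. The counts of calls among 1, 3 and 7 days are therefore given from the fit to all 18 libraries and from a fit to the 15 libraries of those durations. Among these 15, replicate 3 of the 3-day group and replicate 3 of the 7-day group had the highest proximal tubule sums (3324 and 2294 FPKM), and replicate 5 of the 1-day group had the lowest (370.9 FPKM) together with the highest sums of its group for collecting duct (835.8 FPKM), adipocyte (150.5 FPKM), urothelium (91.0 FPKM) and endothelium (105.4 FPKM). Single markers did not all follow. Aqp1 (96.8 FPKM) was highest of its group in 1-day replicate 5, where the other proximal tubule markers were lowest. Aqp2 (370.5 FPKM) and Aqp3 (380.4 FPKM) made up most of its collecting duct sum. In 3-day replicate 3, Cubn (66.4 FPKM) and Slc5a2 (223.1 FPKM) were not the highest of the group, while the other proximal tubule markers were.

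Levels within the family spanned about 3 orders of magnitude. The adenine nucleotide translocase Slc25a5, which exchanges cytosolic ADP for matrix ATP, was the most abundant, with 326 ± 32 FPKM at 1 day, 395 ± 30.3 FPKM at 3 days and 399 ± 31 FPKM at 7 days (SD, n = 5 each). The phosphate carrier Slc25a3, which also brings copper into the matrix, followed with 241 ± 24, 283 ± 19 and 276 ± 19 FPKM at 1, 3 and 7 days (SD, n = 5 each). Slc25a4, the translocase isoform of heart and muscle, came next with 187 ± 27, 219 ± 29 and 229 ± 10.3 FPKM at the same durations (SD, n = 5 each). Slc25a39, a mitochondrial glutathione importer, and Slc25a11, the oxoglutarate-malate exchanger, completed the 5 leading members. Slc25a5 lay above Slc25a3 in all 15 libraries of 1, 3 and 7 days, and at 1 day Slc25a3 lay above Slc25a4 and Slc25a39 in all 5, although the ranges of Slc25a3 and Slc25a4 overlapped there. Slc25a4 and Slc25a39 were not ordered the same way in every 1-day library. Together the 5 made up 64.5% to 69.5% of the summed SLC25 FPKM in the 15 libraries of 1, 3 and 7 days. At the other end Slc25a21, the oxodicarboxylate carrier, and Slc25a27, a brain-type relative of the uncoupling proteins, averaged under 2 FPKM at each of these 3 durations. The summed SLC25 level was 1337 to 1609 FPKM at 1 day, 1661 to 1838 FPKM at 3 days and 1624 to 1848 FPKM at 7 days, so every 3-day and 7-day library lay above every 1-day library on this scale. Divided by the TMM composition factor of each library, the sums overlapped, at 1268 to 1668, 1542 to 1943 and 1509.7 to 1790.5 FPKM at 1, 3 and 7 days. Slc25a4 and Slc25a5 are close paralogs in sequence, and the sources used here do not say how reads shared by both were counted, which leaves their split uncertain.

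**Figure D1:**
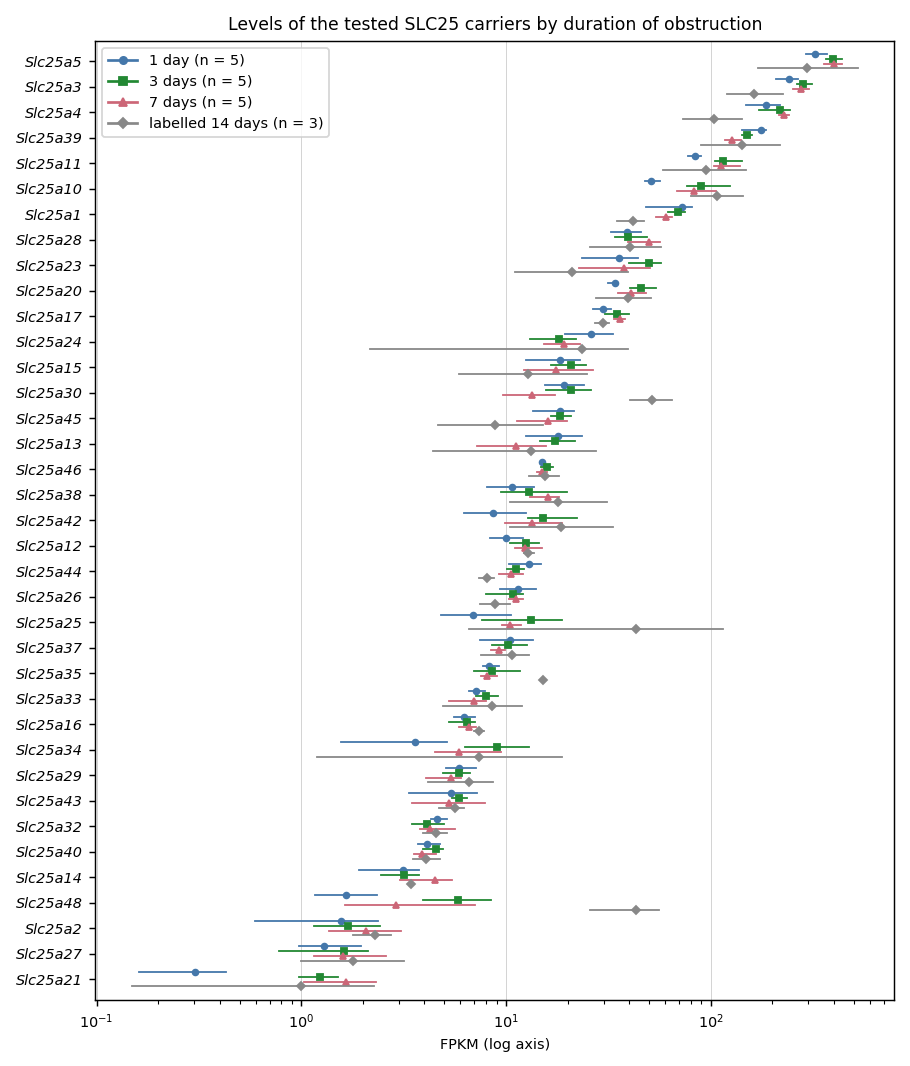
Mean level (marker) and range over libraries (line) of the 37 tested SLC25 genes at each duration of obstruction, in FPKM on a log axis. Slc25a5, Slc25a3, Slc25a4, Slc25a39 and Slc25a11 lead at 1, 3 and 7 days, and Slc25a48, Slc25a30 and Slc25a35 lie higher in the 3 libraries labelled 14 days (grey diamonds) than in any of the 15 others.

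Among the 37 tested members, the least variable over the 15 libraries of 1, 3 and 7 days was Slc25a46, a relative of the family that sits in the outer membrane and takes part in mitochondrial fission, with a coefficient of variation of 4.66%. Slc25a16 (9.45%), a carrier linked to coenzyme A, and Slc25a3 (10.2%) were next. The most variable of the 37 were Slc25a48 (69.8%), Slc25a21 (63.9%), Slc25a34 (48.4%) and Slc25a25 (40.2%), all of them expressed at a mean of under 14 FPKM at every one of these durations.

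Promoter sequences, the 250 bases before the annotated start, were available for 38 of the 43 members from RefSeq on the GRCr8 rat assembly. The 4 shown are those of the members with the largest fold changes below (Slc25a21 and Slc25a48), of the most abundant member with lower levels at later durations (Slc25a39), and of the member with 1 far higher library among those labelled 14 days (Slc25a25). Capitals mark a cyclic AMP response element (TGACGTCA) or a GC box (GGGCGG, or CCGCCC on the other strand).
Slc25a21, chr6:80437721-80437970, minus strand: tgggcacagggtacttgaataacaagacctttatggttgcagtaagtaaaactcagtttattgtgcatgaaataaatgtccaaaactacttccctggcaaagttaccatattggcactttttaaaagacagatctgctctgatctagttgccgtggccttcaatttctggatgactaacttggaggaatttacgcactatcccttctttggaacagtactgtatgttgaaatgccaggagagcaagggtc
Slc25a48, chr17:8172377-8172626, minus strand, 1 of 2 starts listed: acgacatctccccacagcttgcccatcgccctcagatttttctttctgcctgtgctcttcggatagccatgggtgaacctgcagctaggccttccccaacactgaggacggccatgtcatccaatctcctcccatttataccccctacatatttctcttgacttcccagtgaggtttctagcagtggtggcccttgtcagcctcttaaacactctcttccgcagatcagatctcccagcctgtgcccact
Slc25a39, chr10:87866974-87867223, minus strand: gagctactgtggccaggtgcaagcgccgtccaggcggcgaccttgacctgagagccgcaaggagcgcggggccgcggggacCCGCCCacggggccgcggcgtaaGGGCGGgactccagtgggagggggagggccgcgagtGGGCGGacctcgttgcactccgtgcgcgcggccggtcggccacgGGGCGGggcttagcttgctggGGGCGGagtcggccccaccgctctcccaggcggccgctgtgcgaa
Slc25a25, chr3:36116582-36116831, minus strand: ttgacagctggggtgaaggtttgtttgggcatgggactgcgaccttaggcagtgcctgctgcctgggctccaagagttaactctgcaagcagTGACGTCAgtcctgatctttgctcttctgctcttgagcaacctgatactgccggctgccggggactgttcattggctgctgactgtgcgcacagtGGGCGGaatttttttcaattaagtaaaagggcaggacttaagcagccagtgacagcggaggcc
The promoter of Slc25a21 had the lowest GC content of the 38 (40.8%) and that of Slc25a39 the highest (76.4%), around a median of 57.6%, against a median of 54% over 21851 protein-coding promoters of the same length. A GC box on either strand was present in 21 of the 38 member promoters (55.3%) and in 38.9% of all promoters. The cyclic AMP response element was present in Slc25a25 and in Slc25a33, a pyrimidine nucleotide carrier, which is 5.26% of the member promoters, against 1.89% of all promoters. The NRF1 and HNF1 elements, the ERR element TNAAGGTCA, the ATF4 element TGATGCAA and the HNF4A element CAAAGTCCA, read on both strands, were found in 0 member promoters and in 5.07% (NRF1), 0.0595% (HNF1), 0.879% (ERR), 0.645% (ATF4) and 0.348% (HNF4A) of all promoters. No motif shares bases with another in the 4 promoters shown. The GC box was added after these sequences had been read.

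Between 3 days and 1 day of obstruction, most of the SLC25 genes that passed the test were higher at 3 days, among them 3 carriers of organic acids, the acylcarnitine carrier and a coenzyme A carrier. In the fit to the 15 libraries, 8 members were higher and 1 was lower at 3 days than at 1 day (edgeR's quasi-likelihood test with Benjamini-Hochberg adjusted p below 0.05 over all genes). That is 8 of 37, against 5.27% of all tested genes higher, and 1 of 37, against 5.18% lower. The 8 were Slc25a21, Slc25a48, Slc25a34, Slc25a25, Slc25a42, Slc25a10, Slc25a11 and Slc25a20, and the member that was lower was Slc25a24. The median log2 fold change of the 37 members was 0.12, against −0.02 over all genes. The fit to all 18 libraries called 1 member higher (background 1.16%) and 0 lower (background 1.12%), with 8 of 37 at an unadjusted p below 0.05, and a similar median of 0.13. Without replicate 3 of the 3-day group, the library with the highest proximal tubule sum, the fit to the 15 libraries called 3 higher and 1 lower. Its shares of all genes called are not given here.

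Between 7 and 3 days few members moved. The fit to the 15 libraries called 0 higher, against a background of 4.75%, and 1 lower, Slc25a30, against a background of 3.17%. The fit to all 18 called 0 higher and 0 lower, where 0.717% and 0.331% of all genes were called in those directions and 4 members had an unadjusted p below 0.05. The median log2 fold change of the members was −0.16 on 15 libraries and −0.15 on 18, and 6 of 37 were positive in each fit. Without replicate 3 of the 7-day group, the fit to the remaining libraries of the first 3 durations called 0 higher and 4 lower. Its shares of all genes called are not given here.

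After 7 days against 1 day, 2 carriers of organic acids were higher, and 6 members of mixed roles were lower. On 15 libraries 2 members were higher (Slc25a21 and Slc25a10; 18% of all genes were higher) and 6 were lower (Slc25a39, Slc25a24, Slc25a44, Slc25a13, Slc25a30 and Slc25a1; 20.2% of all genes were lower). These shares lie below the background in the upward direction and near it in the downward one. On 18 libraries 1 member was higher (Slc25a21; background 12.3%) and 1 was lower (Slc25a30; background 13.3%). The split of this comparison depended on scaling: with library totals alone in place of composition factors, the calls were 9 higher and 4 lower on 15 libraries and 3 higher and 0 lower on 18. The shares of all genes called with library totals alone are not given here, so this shift cannot be read as particular to the members. Over the first 3 durations jointly, 13 members were called on 15 libraries (34.4% of all genes) and 4 on 18 libraries (19.7%), and the 4 were Slc25a10, Slc25a30, Slc25a48 and Slc25a21.

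**Figure D2:**
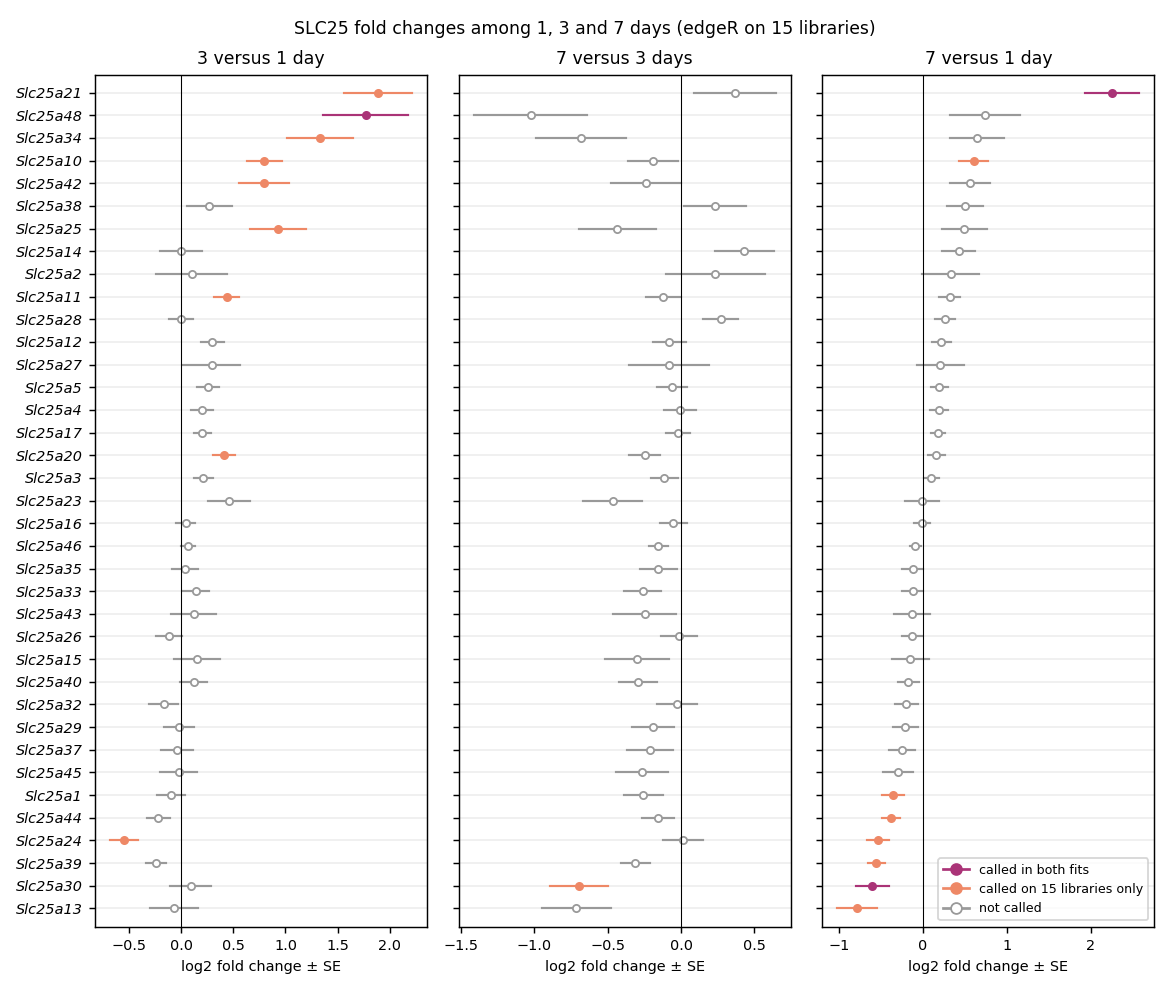
Log2 fold change with its standard error for the 37 tested SLC25 genes between 3 and 1 day, 7 and 3 days, and 7 and 1 day, from the fit to the 15 libraries of these durations (positive, higher at the later duration). Purple points were called in this fit and in the fit to all 18 libraries, orange points in this fit alone, and open grey points in neither. Slc25a21 lies farthest to the right in the 3 versus 1 day and 7 versus 1 day panels.

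Among the di- and tricarboxylate carriers, 3 of 4 were higher at 3 days than at 1 day on 15 libraries, against 5.27% of all genes. On 18 libraries 0 of the 4 were higher, against 1.16% of all genes. Slc25a21 (ENSRNOG00000008931, chr6:77624385-77848434, minus strand, in the coordinates of the deposited table, which names no build) exchanges oxoadipate and related acids from lysine and tryptophan breakdown. Its level in replicates 1 to 5 was 0.337, 0.161, 0.431, 0.172 and 0.415 FPKM at 1 day, 0.979, 1.03, 1.5, 1.26 and 1.4 FPKM at 3 days, and 1.27, 1.03, 2.26, 1.41 and 2.32 FPKM at 7 days. The 1-day libraries lay below every library of 3 and 7 days, on few reads (2 to 10 counts at 1 day, 15 to 25 at 3 days and 15 to 43 at 7 days). The log2 fold change was 1.89 ± 0.33 (SE) between 3 and 1 day (adjusted p = 0.00322, edgeR on 15 libraries; 0.0763 on 18). Between 7 and 1 day it was 2.26 ± 0.32 on 15 libraries (edgeR adjusted p = 0.000157) and 2.29 ± 0.54 on 18 (edgeR adjusted p = 0.00618). Both calls on 15 libraries held when each library was left out in turn.

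Slc25a10 trades malate and succinate for phosphate and is abundant in kidney and liver. It stood at 49.2, 56.8, 49.1, 47.7 and 52.5 FPKM at 1 day, at 78.6, 76.6, 124, 76.5 and 91.5 FPKM at 3 days, and at 68.3, 74.4, 106, 72.1 and 92.1 FPKM at 7 days. All 5 libraries of 1 day were below all 10 of the later durations, and the highest value at 3 days and at 7 days was in replicate 3. The log2 fold change was 0.80 ± 0.17 between 3 and 1 day (edgeR adjusted p = 0.0109 on 15 libraries; 0.0751 on 18) and 0.60 ± 0.17 between 7 and 1 day (edgeR adjusted p = 0.0114 on 15; 0.0562 on 18). Without the 3-day library with the highest proximal tubule sum, the 3 versus 1 day value on 15 libraries was 0.61 (edgeR adjusted p = 0.0206).

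Slc25a11, which passes oxoglutarate and malate in the malate-aspartate shuttle, was at 85.9, 86.5, 82.7, 89.5 and 77.2 FPKM at 1 day, 105, 114, 142, 113 and 105 FPKM at 3 days and 103, 108, 139, 105 and 104 FPKM at 7 days. Here too the 1-day libraries did not overlap with the later ones, and replicate 3 was the highest of its group at 3 and at 7 days. Between 3 and 1 day the log2 fold change was 0.44 ± 0.12 (edgeR adjusted p = 0.0344 on 15 libraries; 0.352 on 18), and this call was lost in 7 of the 10 fits that left out 1 library. The citrate carrier Slc25a1, which exports citrate for fatty acid synthesis, went the other way at 7 days, with 60.8 ± 4.2 FPKM against 72.7 ± 14 FPKM at 1 day (SD, n = 5 each). Its ranges overlapped, since 1-day replicate 5 had 48.2 FPKM. The log2 fold change was −0.35 ± 0.13 (edgeR adjusted p = 0.0441 on 15 libraries; 0.129 on 18), and 8 of 10 fits that left out a library lost the call.

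**Figure D3:**
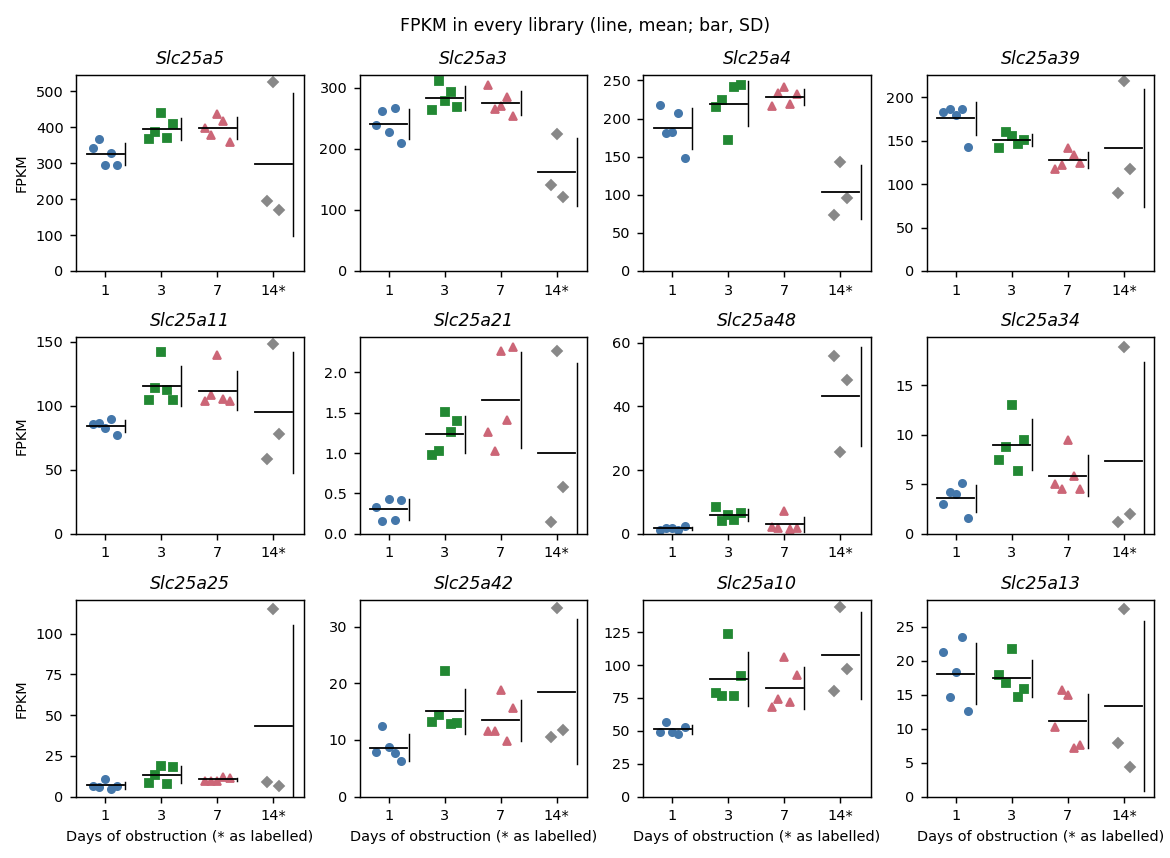
FPKM in each library of the 12 members given library by library: the 5 most abundant and the 7 others with the largest called fold changes among 1, 3 and 7 days. Points are libraries, horizontal lines are group means and vertical bars are SD, drawn no lower than 0. Slc25a21, Slc25a10, Slc25a11, Slc25a48 and Slc25a34 show no overlap between 1 and 3 days, and Slc25a25 shows 1 library labelled 14 days at 115 FPKM.

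The 5 tested carriers of adenine nucleotides divided. The exchangers Slc25a5 and Slc25a4 did not pass the test in any comparison among 1, 3 and 7 days. Slc25a5 had 342, 369, 295, 328 and 294 FPKM at 1 day, 366, 388, 439, 369.8 and 410.1 FPKM at 3 days and 398, 379, 439, 419 and 360.05 FPKM at 7 days, so that 3-day replicate 1 and 7-day replicate 5 lay inside the 1-day range. Slc25a4 had 218, 181, 182, 208 and 148 FPKM at 1 day, 215, 224, 172, 242 and 244 FPKM at 3 days and 217, 234, 241, 219 and 232 FPKM at 7 days. The log2 fold changes between 3 and 1 day were 0.26 ± 0.10 for Slc25a5 (edgeR adjusted p = 0.117 on 15 libraries; 0.671 on 18) and 0.20 ± 0.11 for Slc25a4 (edgeR adjusted p = 0.244 on 15; 0.617 on 18). The ratio of Slc25a5 to Slc25a4 in FPKM had a median of 1.62 at 1 day, 1.71 at 3 days and 1.82 at 7 days, with overlapping ranges.

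The ATP-Mg/phosphate carriers are opened by calcium and adjust the adenine nucleotide pool of the matrix. Between 3 and 1 day they gave 1 call in each direction on 15 libraries and 0 on 18. Of all genes, 5.27% were higher and 5.18% lower on 15 libraries. Slc25a24 was lower at 3 and at 7 days than at 1 day, with 26.0 ± 5.1, 18.1 ± 3.3 and 19.2 ± 2.8 FPKM at 1, 3 and 7 days (SD, n = 5 each). Its log2 fold change was −0.55 ± 0.13 between 3 and 1 day (edgeR adjusted p = 0.0206 on 15 libraries; 0.488 on 18) and −0.53 ± 0.13 between 7 and 1 day (edgeR adjusted p = 0.00626 on 15; 0.346 on 18). The group ranges overlapped (19.4 to 33.4 FPKM at 1 day, 13.1 to 21.9 FPKM at 3 days and 15.4 to 23.0 FPKM at 7 days), and both calls on 15 libraries held with each library left out in turn. The 1-day library highest for Slc25a24 was replicate 5, which stood apart in its tissue markers.

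Slc25a25 had 6.54, 5.89, 10.5, 4.82 and 6.73 FPKM at 1 day, 8.39, 13.5, 18.8, 7.64 and 18.2 FPKM at 3 days and 9.7, 9.8, 9.61, 11.9 and 11.2 FPKM at 7 days. The 1-day and 3-day libraries overlapped. Between 3 and 1 day it changed by a log2 fold of 0.93 ± 0.27 (edgeR adjusted p = 0.0393 on 15 libraries; 0.444 on 18), and the call was lost in 7 of 10 fits that left out a library. Slc25a23, the remaining ATP-Mg/phosphate carrier with enough reads, averaged 35.8 ± 7.5, 49.9 ± 6.7 and 37.9 ± 10.1 FPKM at 1, 3 and 7 days (SD, n = 5 each) and was not called in any of the 3 comparisons.

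Slc25a3, the phosphate carrier that feeds ATP synthase, had 239, 261, 228, 267 and 209 FPKM at 1 day, 264, 311, 279, 294 and 269 FPKM at 3 days and 304, 264, 271, 285 and 254 FPKM at 7 days. The 3-day and 1-day ranges touched (264 against 267 FPKM). Its log2 fold change between 3 and 1 day was 0.21 ± 0.091 (edgeR adjusted p = 0.143 on 15 libraries; 0.585 on 18), so it was not called.

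Among the 7 tested amino acid carriers, 0 were higher and 2 were lower at 7 days than at 1 day on 15 libraries. Of all genes, 18% were higher and 20.2% lower in that fit. On 18 libraries 0 of the 7 were called in either direction, against 12.3% of all genes higher and 13.3% lower. Slc25a13 (citrin), the aspartate-glutamate exchanger of liver and other epithelia, had 21.2, 14.7, 18.4, 23.5 and 12.6 FPKM at 1 day, 17.9, 16.8, 21.8, 14.7 and 15.9 FPKM at 3 days and 10.3, 15.7, 14.9, 7.2 and 7.59 FPKM at 7 days. The 3-day values lay within the 1-day range, and 3 of the 5 values at 7 days lay below it. Between 7 and 1 day its log2 fold change was −0.78 ± 0.24 (edgeR adjusted p = 0.0181 on 15 libraries; 0.196 on 18) and the call on 15 libraries held with each library left out. The 2 libraries lowest for Slc25a13 at 7 days, replicates 4 and 5, had proximal tubule sums of 573.3 and 1412 FPKM, against a group median of 1139 FPKM. Slc25a12 (aralar), which does the same exchange and predominates in brain and muscle, averaged 10.1 ± 1.4, 12.5 ± 1.5 and 12.5 ± 1.6 FPKM at 1, 3 and 7 days (SD, n = 5 each) and was not called, with a log2 fold change of 0.22 ± 0.11 between 7 and 1 day (edgeR adjusted p = 0.138 on 15 libraries; 0.212 on 18).

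The ratio of Slc25a12 to Slc25a13 in FPKM was 0.438 to 0.961 at 1 day, 0.553 to 0.919 at 3 days and 0.835 to 1.65 at 7 days. Its mean was 0.591 ± 0.21 at 1 day, 0.737 ± 0.16 at 3 days and 1.22 ± 0.37 at 7 days (SD, n = 5 each). Slc25a13 was the more abundant of the pair in all 10 libraries of 1 and 3 days, and Slc25a12 was the more abundant in 3 of 5 libraries at 7 days. The 1-day library with the highest ratio, 0.961, was replicate 5, which stood apart in its tissue markers.

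Slc25a44, which carries branched-chain amino acids, was 10.6 ± 1.0 FPKM at 7 days, against 12.9 ± 1.7 FPKM at 1 day (SD, n = 5 each). On the log2 scale the difference was −0.38 ± 0.11 (edgeR adjusted p = 0.0123 on 15 libraries; 0.0529 on 18). The ranges overlapped, and the call on 15 libraries held with each library left out. The ornithine carrier Slc25a15 of the urea cycle, the glycine carrier Slc25a38 that supplies haem synthesis, the basic amino acid carrier Slc25a29 and the second ornithine carrier Slc25a2 were not called in these comparisons. Slc25a38 had mean levels of 10.7 ± 2.3, 13.0 ± 4.2 and 16.1 ± 2.3 FPKM at 1, 3 and 7 days (SD, n = 5 each), with an edgeR adjusted p of 0.0799 between 7 and 1 day on 15 libraries and 0.282 on 18.

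**Figure D4:**
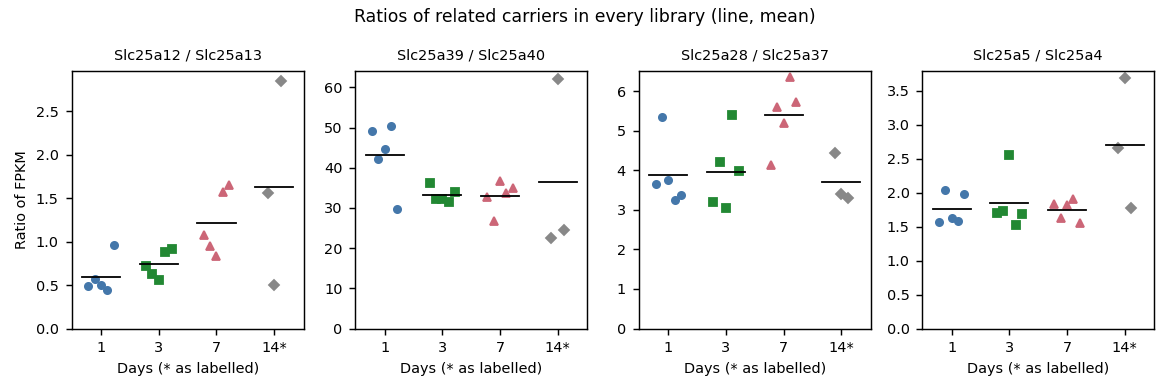
Ratio of FPKM within 4 pairs of related carriers in every library, by days of obstruction (points, libraries; lines, means). The ratio of Slc25a12 to Slc25a13 was below 1 in all 10 libraries of 1 and 3 days and reached 1.65 at 7 days, while the ratio of Slc25a39 to Slc25a40 was 29.8 to 50.3 at 1 day and 26.7 to 36.6 at 7 days.

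Of the 8 carriers of cofactors, nucleotides and glutathione, Slc25a39 gave the lowest adjusted p. It had 183, 186, 179.6, 186 and 142 FPKM at 1 day, 142, 159.6, 155, 146 and 151 FPKM at 3 days and 118, 122, 141, 133 and 124 FPKM at 7 days. The 7-day libraries were all below the 1-day libraries, although 1-day replicate 5 (142 FPKM) was close to the highest 7-day value (141 FPKM). Between 7 and 1 day its log2 fold change was −0.55 ± 0.097 (edgeR adjusted p = 0.000669 on 15 libraries; 0.0926 on 18), and it kept its call on 15 libraries with each library left out. Its paralog Slc25a40, also a glutathione carrier, averaged 4.13 ± 0.46, 4.55 ± 0.40 and 3.90 ± 0.41 FPKM at 1, 3 and 7 days (SD, n = 5 each) and was not called. Slc25a40 overlaps the gene Rundc3b on the opposite strand over 10114 bases, and the sources used here do not say whether the counting used strand.

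Slc25a42, which brings coenzyme A into the matrix, had 7.9, 12.5, 8.82, 7.66 and 6.27 FPKM at 1 day, 13.2, 14.5, 22.1, 12.9 and 12.9 FPKM at 3 days and 11.5, 11.6, 18.8, 9.91 and 15.7 FPKM at 7 days. The 1-day libraries were all below the 3-day libraries, narrowly in the case of replicate 2, and overlapped with those of 7 days. Its log2 fold change between 3 and 1 day was 0.80 ± 0.24 (edgeR adjusted p = 0.0475 on 15 libraries; 0.251 on 18), a call lost in 9 of 10 fits that left out a library. The coenzyme A and NAD carrier of peroxisomes Slc25a17, the S-adenosylmethionine carrier Slc25a26, the folate carrier Slc25a32, the pyrimidine nucleotide carrier Slc25a33 and Slc25a16 were not called among these 3 durations.

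The acylcarnitine carrier Slc25a20, the step that takes long-chain fatty acids into the matrix, was 34.1 ± 1.5 FPKM at 1 day, 46.0 ± 5.5 FPKM at 3 days and 40.7 ± 5.2 FPKM at 7 days (SD, n = 5 each). The 3-day range of 40.2 to 54.1 FPKM lay above the 1-day range of 31.4 to 35.2 FPKM. The log2 fold change was 0.41 ± 0.10 (edgeR adjusted p = 0.0233 on 15 libraries; 0.231 on 18), and leaving out replicate 3 or replicate 5 of the 3-day group ended the call. The mitoferrins, which import iron for haem and iron-sulfur clusters, were not called: Slc25a28 had 50.0 ± 6.5 FPKM at 7 days, against 39.1 ± 4.9 FPKM at 1 day (SD, n = 5 each; edgeR adjusted p = 0.0876 on 15 libraries; 0.196 on 18), and Slc25a37 had 9.31 ± 0.57 FPKM, against 10.4 ± 2.4 FPKM.

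Slc25a30, a relative of the uncoupling proteins named for its expression in kidney, was the single member lower at 7 days than at 3 days. It averaged 19.3 ± 3.8, 20.7 ± 4.8 and 13.5 ± 3.4 FPKM at 1, 3 and 7 days (SD, n = 5 each), with overlapping ranges. The log2 fold change was −0.69 ± 0.20 between 7 and 3 days (edgeR adjusted p = 0.0453 on 15 libraries; 0.0857 on 18) and −0.60 ± 0.20 between 7 and 1 day (edgeR adjusted p = 0.0272 on 15; 0.0359 on 18). Leaving out a library ended the first call on 15 libraries in 6 of 10 fits and the second in 4 of 10. The relatives Slc25a14 and Slc25a27 were not called.

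Slc25a48, a carrier linked to choline import into mitochondria, and Slc25a34, whose substrate is less settled, completed the members higher at 3 days than at 1 day. Slc25a48 had 1.17, 1.67, 1.89, 1.19 and 2.34 FPKM at 1 day, 8.5, 3.95, 5.89, 4.3 and 6.45 FPKM at 3 days and 2.11, 1.9, 7.05, 1.63 and 1.85 FPKM at 7 days. The 3-day libraries were all above the 1-day libraries, and 4 of the 5 libraries of 7 days were within the 1-day range, the exception being replicate 3. Its log2 fold change between 3 and 1 day was 1.77 ± 0.41 on 15 libraries (edgeR adjusted p = 0.0156) and 1.78 ± 0.39 on 18 (edgeR adjusted p = 0.0287). The call on 15 libraries held with each library left out in turn, whereas the call on 18 was lost in 7 of the 10 fits that left out a library. Between 7 and 3 days the log2 fold change was −1.02 ± 0.39 (edgeR adjusted p = 0.106 on 15 libraries; 0.159 on 18), so the difference was not called.

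Slc25a34 had 3, 4.17, 4.04, 5.15 and 1.57 FPKM at 1 day, 7.48, 8.74, 13, 6.35 and 9.43 FPKM at 3 days and 5.01, 4.56, 9.45, 5.82 and 4.53 FPKM at 7 days. Again the 3-day libraries lay above all 1-day libraries, and the 7-day libraries overlapped with both. Its log2 fold change between 3 and 1 day was 1.33 ± 0.32 (edgeR adjusted p = 0.0185 on 15 libraries; 0.254 on 18), and the call was lost without replicate 3 of the 3-day group. That library held the highest value of Slc25a10, Slc25a11, Slc25a21, Slc25a25, Slc25a34 and Slc25a42 at 3 days, and the proximal tubule sum of 3324 FPKM noted above. The 10 proximal tubule markers summed to 652.4 to 3324 FPKM at 3 days (median 1365) and 370.9 to 1024 FPKM at 1 day (median 762.7), with 0 of the 10 at 0 in every library of either group. The part of tubule content in these differences was not tested.

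The libraries labelled 14 days differed from those of 7 days in the family, with 11 members higher (21.4% of all genes were higher) and 1 lower (16.9% of all genes were lower) in the fit to 18 libraries. Of these, 4 calls held with each library of these groups left out in turn: Slc25a48, Slc25a30, Slc25a35 and Slc25a16. Slc25a48 had 55.8, 25.8 and 48.2 FPKM in the 3 libraries labelled 14 days, against 1.63 to 7.05 FPKM at 7 days, and its log2 fold change was 4.11 ± 0.42 (adjusted p = 6.97e-06 by edgeR). Slc25a30 had 64.6, 40.5 and 50.7 FPKM, against 9.67 to 17.3 FPKM at 7 days, which gave a log2 difference of 2.25 ± 0.22 (edgeR adjusted p = 5.33e-06). Slc25a35, an orphan carrier, had 14.9, 14.7 and 15.7 FPKM, against 7.56 to 9.01 FPKM, which gave a log2 difference of 1.22 ± 0.14 (edgeR adjusted p = 2.11e-05). Groups did not overlap for any of these 3 members. Slc25a35 shares 42 bases with Rangrf on the opposite strand. Slc25a16 had 7.8, 6.95 and 7.49 FPKM, against 5.92 to 7.17 FPKM, with a smaller log2 difference of 0.50 ± 0.12 (edgeR adjusted p = 0.0033).

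The remaining calls of this comparison rested more on single libraries. Slc25a25 had 9.01, 115 and 6.63 FPKM in the libraries labelled 14 days, against 9.61 to 11.9 FPKM at 7 days, and its log2 fold change of 2.62 ± 0.69 (edgeR adjusted p = 0.00761) was −0.22 (edgeR adjusted p = 0.635) without replicate 2. Slc25a4 had 73.3, 143 and 96.2 FPKM, against 217 to 241 FPKM at 7 days, with a log2 difference of −0.75 ± 0.23 (edgeR adjusted p = 0.0172), and leaving out replicate 1 or 3 ended the call (edgeR adjusted p = 0.089 and 0.0772). Slc25a10, at 80.1, 145 and 97.3 FPKM against 68.3 to 106 FPKM, differed by 0.76 ± 0.26 on the log2 scale (edgeR adjusted p = 0.0285), which was 0.28 (edgeR adjusted p = 0.292) without replicate 2. Slc25a46, Slc25a29, Slc25a37, Slc25a33 and Slc25a32 were the other members called higher, with log2 fold changes of 0.38 to 0.69, and each lost its call without at least 1 library. With library totals alone the median log2 fold change of all genes moved to −0.24, against 0.07 with composition factors, and the members called were 4 higher and 5 lower. Shares of all genes called under that scaling are not given here.

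**Figure D5:**
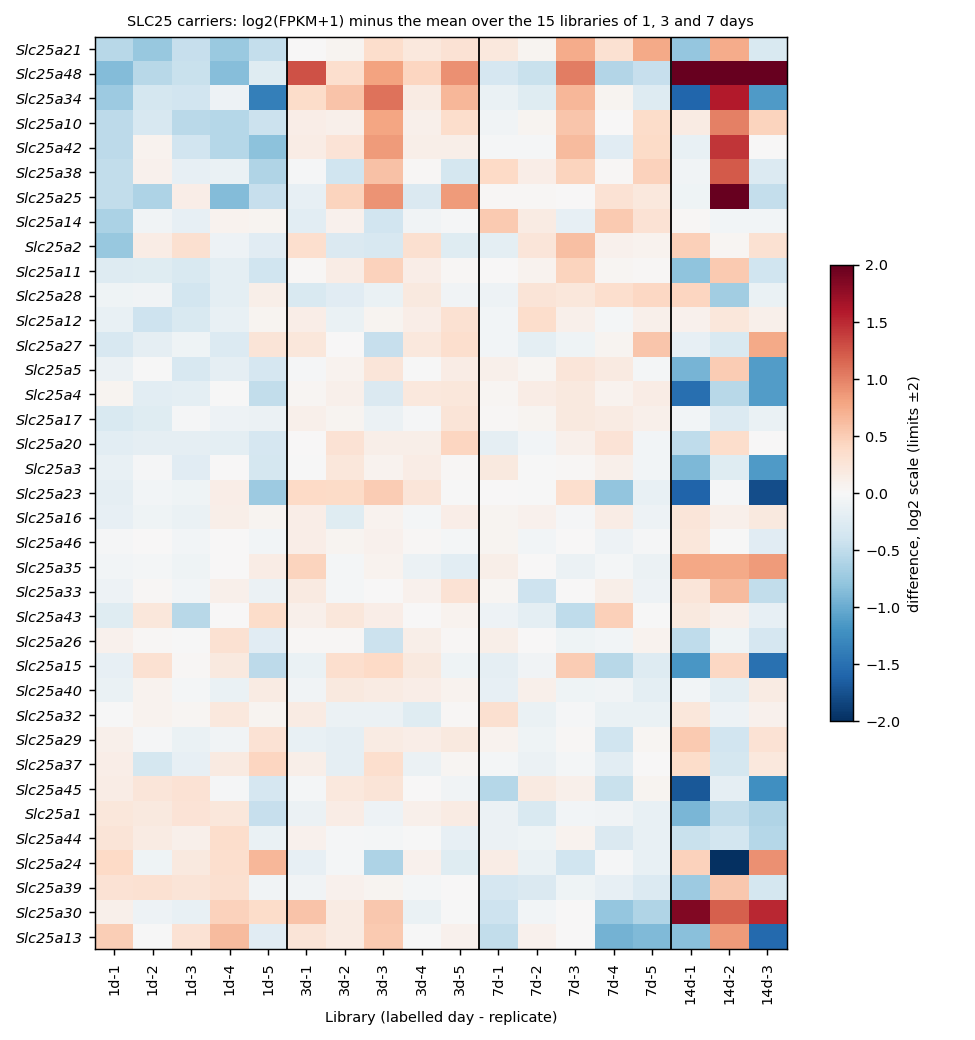
Difference of log2(FPKM+1) from its mean over the 15 libraries of 1, 3 and 7 days, for the 37 tested SLC25 genes (rows, ordered by the 7 versus 1 day log2 fold change) in all 18 libraries (columns, named by labelled day and replicate; colours stop at ±2). The 3 libraries labelled 14 days differ among themselves, replicate 2 being high for Slc25a25, Slc25a34 and Slc25a42 where replicates 1 and 3 are not, while Slc25a48 and Slc25a30 are high in all 3.

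Within the 3 libraries labelled 14 days, several members split as the proximal tubule and the loop and distal tubule sums did. The collecting duct sum ran the other way, with 241.6 FPKM in replicate 2, against 1320 and 1247 FPKM in replicates 1 and 3. Slc25a13 had 27.6 FPKM in replicate 2, against 7.89 and 4.38 FPKM in replicates 1 and 3. Slc25a34 had 18.9 FPKM in replicate 2 and 1.2 and 2.01 FPKM in the other two, and Slc25a39 had 219 FPKM in replicate 2 and 89.7 and 117 FPKM in the others. Slc25a24 ran the other way, with 2.16 FPKM in replicate 2, against 28.7 and 39.7 FPKM. Slc25a21 was at 2.27 FPKM in replicate 2 and at 0.148 and 0.586 FPKM in replicates 1 and 3. Slc25a11 was at 149 FPKM in replicate 2 and at 58.4 and 77.6 FPKM in the others, Slc25a42 at 33.3 FPKM and at 10.5 and 11.8 FPKM, Slc25a5 at 526 FPKM and at 194 and 170.03 FPKM, and Slc25a3 at 225 FPKM and at 142 and 120.4 FPKM. Replicate 2 had the proximal tubule sum of 4429 FPKM and the loop and distal tubule sum of 2692 FPKM, against 258.4 and 36.8 FPKM for loop and distal tubule in replicates 1 and 3. Umod alone gave 2270 FPKM of the latter sum in replicate 2. Slc12a3 (76.5 against 97.0 FPKM), Calb1 (21.9 against 66.3 FPKM) and the proximal Slc22a8 (7.34 against 10.3 FPKM) were lower in replicate 2 than in replicate 1. The other markers of these lists were higher in replicate 2. Replicates 1 and 3 had smooth muscle sums of 892.4 and 675.5 FPKM, and replicate 3 had an adipocyte sum of 2387 FPKM. Duration and tissue content cannot be told apart in these 3 libraries. Over the 4 labelled durations jointly, 10 members were called (47.7% of all genes were called).

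The genes that work beside the carriers were followed in lists chosen by function, with values from the 15 libraries and the counts on 18 beside them. The shares of all genes called are those given above: on 15 libraries 5.27% higher and 5.18% lower between 3 and 1 day, 3.17% lower between 7 and 3 days, and 18% higher and 20.2% lower between 7 and 1 day. Of the 6 malate-aspartate shuttle and glutamate enzymes, 1 was higher and 4 were lower at 7 days than at 1 day on 15 libraries (0 and 3 on 18). Got1, the cytosolic aspartate aminotransferase, was 56.3 ± 3.7 FPKM at 7 days, against 127 ± 38 FPKM at 1 day (SD, n = 5 each; log2 fold change −1.27 ± 0.19, edgeR adjusted p = 0.000198), and its mitochondrial counterpart Got2 differed by −0.71 ± 0.098 on the log2 scale (edgeR adjusted p = 0.000118). In the same comparison, Slc25a13 of this shuttle was lower and Slc25a11 was not called. Of the 6 genes for citrate export and lipogenesis, 1 was higher and 5 were lower at 7 days than at 1 day (0 and 4 on 18), with acetyl-CoA carboxylase Acaca at −1.07 ± 0.20 and malic enzyme Me1 at −0.81 ± 0.11 on the log2 scale (edgeR adjusted p = 0.000915 and 8.99e-05), beside the lower Slc25a1.

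Of the 5 carnitine genes, 1 was higher at 3 days than at 1 day and 0 were lower (0 and 0 on 18 libraries). The one was Slc22a5, which brings carnitine into the cell across the plasma membrane, at 31.5 ± 7.9 FPKM at 3 days, against 17.4 ± 2.9 FPKM at 1 day (SD, n = 5 each). It differed by 0.84 ± 0.19 on the log2 scale (edgeR adjusted p = 0.0148 on 15 libraries; 0.164 on 18). At 7 days 4 were lower than at 3 days (1 on 18), among them Slc22a5 again and Cpt1a (log2 fold change −0.97 ± 0.21, edgeR adjusted p = 0.0163 on 15 libraries; 0.0488 on 18), whose product is the substrate of Slc25a20. Of 7 tested mitochondrial one-carbon enzymes, 0 were higher and 3 were lower at 3 days than at 1 day (0 and 1 on 18 libraries), and 0 and 4 at 7 days (0 and 2 on 18). Mthfd2 was 3.19 ± 0.76 FPKM at 3 days, against 10.3 ± 2.3 FPKM at 1 day (SD, n = 5 each; log2 fold change −1.72 ± 0.22, edgeR adjusted p = 0.000686), while the folate carrier Slc25a32 was not called. Of 7 tested ornithine, arginine and creatine enzymes, 2 were higher and 1 was lower at 3 days than at 1 day (1 and 1 on 18 libraries), and 3 and 1 at 7 days (2 and 1 on 18). Gatm, the first enzyme of creatine synthesis and a proximal tubule gene, was 458 ± 323 FPKM at 3 days, against 119.6 ± 46 FPKM at 1 day (SD, n = 5 each; log2 fold change 1.94 ± 0.50, edgeR adjusted p = 0.0261 on 15 libraries; 0.0762 on 18), and the argininosuccinate lyase Asl differed by −1.02 ± 0.16 on the log2 scale (edgeR adjusted p = 0.00203).

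Of 8 tested iron-sulfur and haem enzymes, 0 were higher and 2 were lower at 7 days than at 1 day (the same counts on 18 libraries), namely Fech (log2 fold change −0.64 ± 0.11, edgeR adjusted p = 0.000457) and Hmox1 (−1.12 ± 0.27, edgeR adjusted p = 0.00456). Of the 11 tested genes for carrier import through TOM70, the small TIM proteins and TIM22, 0 were higher and 1, Agk, was lower at 7 days than at 1 day (log2 fold change −0.39 ± 0.11, edgeR adjusted p = 0.0142 on 15 libraries; 0.0299 on 18), and 0 passed in the other comparisons of these 3 durations. Of 16 tested genes for other transport across the inner and outer membranes, 2 were higher and 6 were lower at 7 days than at 1 day (0 and 4 on 18 libraries). The pore of the calcium uniporter Mcu differed by −0.71 ± 0.11 on the log2 scale (edgeR adjusted p = 0.00029) and Sfxn5 by −1.13 ± 0.18 (edgeR adjusted p = 0.000303). Mpc1, a subunit of the mitochondrial pyruvate carrier, was 171 ± 29 FPKM at 3 days, against 121 ± 9.9 FPKM at 1 day (SD, n = 5 each; log2 fold change 0.48 ± 0.13, edgeR adjusted p = 0.031 on 15 libraries; 0.11 on 18).

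Of the 11 regulators of mitochondrial biogenesis, 1 was higher and 0 were lower at 3 days than at 1 day (0 and 0 on 18 libraries), and 2 were higher and 4 lower at 7 days (0 and 3 on 18). The nuclear receptor Esrra was the one at 3 days (log2 fold change 0.49 ± 0.10, edgeR adjusted p = 0.00932 on 15 libraries; 0.133 on 18), and Ppara, which drives fatty acid oxidation genes, had a log2 fold change of −1.17 ± 0.29 between 7 and 1 day (edgeR adjusted p = 0.00607). Of the 3 tested uncoupling proteins and carrier-like proteins that bear other symbols, 0 were higher and 1, Mtch2, was lower at 7 days than at 1 day (log2 fold change −0.31 ± 0.11, edgeR adjusted p = 0.0295 on 15 libraries; 0.117 on 18). The summed macrophage, fibroblast, smooth muscle and lymphocyte markers also lay higher at 7 days, with no overlap with 1 day. Single markers did not all follow. Myh11 was at 5.43 to 9.57 FPKM at 7 days, against 5.81 to 13.7 FPKM at 1 day. Actg2 was at 0.358 to 0.842 FPKM, against 0.257 to 24 FPKM. Among others, Cd68, Adgre1, C1qb, Pdgfra, Lum, Cd79a and Ms4a1 also overlapped between 1 and 7 days. At 7 days Acta2 and Tagln made up most of the smooth muscle sum. The 6 macrophage markers summed to 159.9 to 632.6 FPKM at 7 days, against 75.7 to 156.5 FPKM at 1 day, and the 6 fibroblast markers to 350.7 to 578.1 FPKM, against 95.1 to 180.2 FPKM. The 6 smooth muscle markers summed to 233.1 to 425.1 FPKM at 7 days, against 81.9 to 144.8 FPKM at 1 day, and the 6 lymphocyte markers to 40.6 to 129.1 FPKM, against 12.8 to 19.95 FPKM. The part of these cells in the lower levels at 7 days was not tested.

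The 6 members that could not be tested had few or no reads. Slc25a47, a carrier named for liver, had 33 counts over all 18 libraries, the glutamate carrier Slc25a18 had 13, the testis-type translocase Slc25a31 had 4 and Slc25a54 had 2. The glutamate carrier Slc25a22 and the ATP-Mg/phosphate carrier Slc25a41 had 0 counts in every library. A count of 0 allows up to 3 counts, which is 0.249 to 0.547 CPM depending on the library, for counting error only. Nfs1, which cells need to make iron-sulfur clusters, and the lipase gene Pnpla2 are also listed at 0 in all 18 libraries, so a 0 in this table may be a gap in the counting, and Slc25a22 and Slc25a41 are not shown to be absent.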

How the data were processed

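RNA was measured by poly(A)-selected sequencing in 18 libraries. Per the submitters' processing notes, reads were handled with fastp 0.19.7 and HISAT2 2.0.4; the sources used here do not give the counting tool, strand setting, annotation release or genome build. The authors deposited 1 table with whole-number counts and FPKM per gene and library; FPKM were used as deposited for levels, and counts for tests. Genes were filtered with filterByExpr (minimum count 10, minimum total 15), scaled by TMM and tested with edgeR 4.0.16 (quasi-likelihood) in R 4.3.3 with duration as the only term, on all 18 libraries (14511 genes) and on the 15 of 1, 3 and 7 days (13991 genes). A call is a Benjamini-Hochberg adjusted p below 0.05 over all genes tested; fold changes are later over earlier duration. The procedure was tested on simulated data. Depth was 5488540 to 12049915 counts per library, which leaves genes with few reads imprecise.

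The members, their roles and the lists of partner genes and markers were chosen with earlier results of these data known. Tests were printed for members called in either fit and, for a role without a call, for the member with the lowest p. Beyond that rule, tests were also printed for some members not called in the comparison concerned, among them Slc25a4, Slc25a5, Slc25a12 and Slc25a38. Levels in every library were given for the 5 most abundant members and the 7 others with the largest called fold changes among 1, 3 and 7 days; up to 3 called genes per partner list and comparison could be named. Some genes of these lists are not reported here. Alternatives were DESeq2 1.42.0, other scaling, no filter, a replicate block, fewer groups and each library left out. No libraries agreed within sampling noise. Protein sequences were not used here.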

Additional observations from a re-analysis of the deposited data

Results flagged for a closer look

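Within groups of 5 libraries, 11 of 111 sets of 5 FPKM values held 1 library far from the other 4 by Dixon's criterion, where chance gives about 1 in 20. Replicate 5 of the 1-day group was the lowest of its group for Slc25a39 (142 FPKM), Slc25a1 (48.2 FPKM) and Slc25a20 (31.4 FPKM). This library had the lowest proximal tubule sum and the highest collecting duct sum of its group. Replicate 3 of the 3-day group was the highest for Slc25a11 (142 FPKM) and Slc25a42 (22.1 FPKM) and the lowest for Slc25a26 (8 FPKM). Replicate 3 of the 7-day group was the highest for Slc25a11 (139 FPKM), Slc25a34 (9.45 FPKM) and Slc25a48 (7.05 FPKM). Both of these libraries had the highest proximal tubule sum of their group. The part of tissue content in these values was not tested. Replicate 1 of the 7-day group was the highest for Slc25a32 (5.62 FPKM), and replicate 5 of that group for Slc25a27 (2.6 FPKM).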

How the results depend on the processing

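Beyond the fits to 18 and to 15 libraries reported above, shares of all genes called under each setting are not given here. A change in a member count therefore cannot be told from a change over all genes. On all 18 libraries, DESeq2 called 3 members between 3 and 1 day, 1 between 7 and 3 days and 4 between 7 and 1 day, and library totals alone called 2 between 3 and 1 day. No filter on low counts left 1 between 7 and 1 day and 2 over the first 3 durations. Leaving out the libraries labelled 14 days gave 9, 1 and 8 in the 3 pairwise comparisons and 13 jointly, and fitting only the 2 groups compared gave 7 (3 versus 1 day), 9 (7 versus 1 day) and 5 (14 versus 7 days as labelled). On 15 libraries, the 1 call between 7 and 3 days became 3 with DESeq2 and 0 with library totals, no filter, the replicate block or only the 2 groups, and library totals gave 13 between 7 and 1 day. With 1 library left out at a time, the counts ran from 0 to 1 (3 versus 1 day), 0 to 1 (7 versus 3 days), 1 to 3 (7 versus 1 day), 7 to 16 (14 versus 7 days), 8 to 23 (all 4 durations) and 2 to 5 (first 3 durations) on 18 libraries. On 15 libraries they ran from 4 to 9, 0 to 4 and 6 to 9 for the 3 pairwise comparisons and 8 to 13 jointly. The highest count over all 4 durations, 23, came without replicate 2 of the libraries labelled 14 days. Of the single-gene values, 1 reversed: Slc25a25 between 14 and 7 days as labelled, −0.22 without that same library and 3.14 at most without another. Causes were not tested.

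Replicate numbers are shared between groups. Same-numbered libraries deviated together at a correlation over 0.1 in 10 of 24 pairs (median 0.0408, −0.424 to 0.395). Differently numbered libraries did so in 24 of 96 pairs (median −0.0337, −0.643 to 0.526). Such weak and overlapping correlations cannot decide whether the numbers pair the libraries. With the replicate block on 18 libraries, 1 member was called between 7 and 1 day, 7 between 14 and 7 days as labelled and 2 over the first 3 durations. Shares of all genes called with the block are not given here. Depth limits Slc25a21 most among the members called.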
